A study of Physcomitrium patens with 12 samples.

Results

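The 60 genes described here differed in the same direction between the PpPINC mutant line and wild type in both sexual organs of the moss Physcomitrium patens. They were taken from a table of 32926 genes by their mean level in each group, in CPM, the count scaled to a common library total. The difference in antheridia was a, the log2 of the mean of mutant antheridia plus 1 CPM over the mean of wild type antheridia plus 1 CPM, and b was the same in archegonia. A gene qualified if a and b had the same sign and were each at least 1 in size, if the wild type organs differed by less than 3 on that scale, and if at least 1 group averaged 3 CPM or more. In all, 155 genes qualified, 86 of them lower and 69 higher in the mutant, or 65 lower and 96 higher with TMM-adjusted library sizes, and the 60 with the largest smaller one of the sizes of a and b were kept. Of these 34 were lower and 26 higher in both mutant organs. Because a and b chose the genes, both are given as a description and carry no test.

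RNA came from mature antheridia and archegonia of strain Gransden, picked on day 18 of sporophyte induction. The 4 groups of 3 libraries each were antheridia of the mutant line pinC#29, wild type antheridia, archegonia of the mutant line pinC#29, and wild type archegonia. Each library pooled 8 organs, and the mutant is represented by pinC#29 alone, so an effect of the mutated gene and any other peculiarity of that line cannot be told apart. Replicates are described as biological, without a statement on whether plants grew in separate cultures.

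Antheridia are the male organs of mosses and release swimming sperm, and archegonia are the flask-shaped female organs that each enclose an egg. Members of the PIN family carry auxin out of cells, and this hormone is known in mosses as a regulator of growth and organ development. In samples of whole organs, fewer cells that express a gene and less RNA per cell cannot be told apart. The identifiers of the count table have no match in the RefSeq gene table of the assembly ASM5946719v1, where 0 of 27567 genes carried one, so the genes are given by identifier and without function, and no sequence is shown.

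The 12 libraries held between 19038033 and 39833129 counts. Mutant antheridia 2 and 3 and mutant archegonia 3 had 19088, 20359 and 19803 genes with a count, against 21654 to 24802 in the other 9 libraries, without being the shallowest. These 3 libraries stand apart, and for the named members that no longer met the rule without them a and b are also given without them. All 60 members passed the low-count filter of the test, which left 22792 genes.

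**Figure D1:**
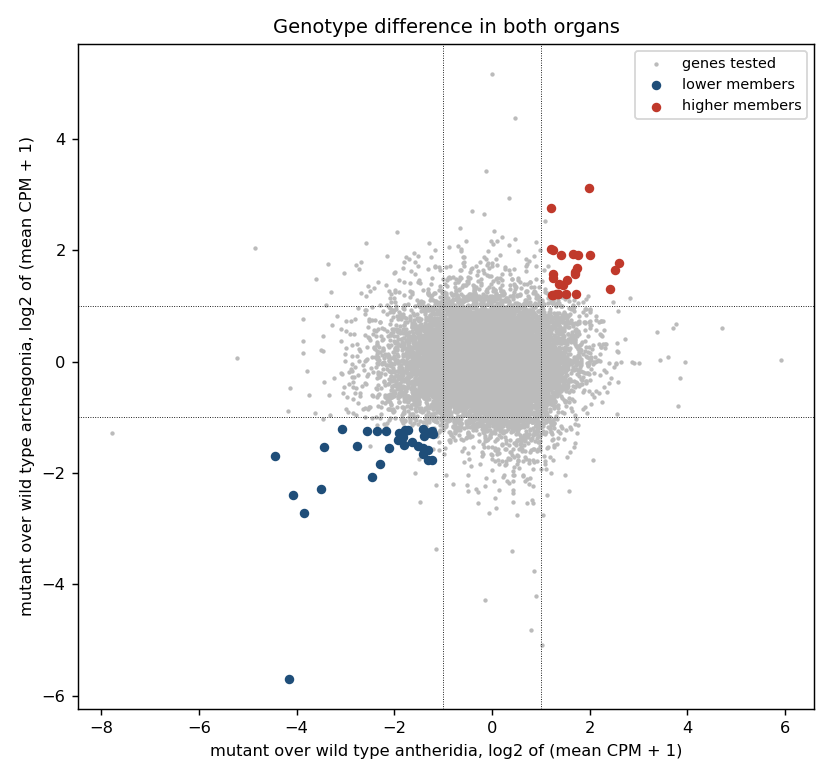
Genotype difference in antheridia (x axis) against that in archegonia (y axis), both as the log2 of mutant over wild type mean CPM plus 1, for the 22792 genes tested (grey), the 34 lower members (blue) and the 26 higher members (red), with dotted lines at 1 and -1. The members lie in the corners where both differences have the same sign because the rule placed them there, and Pp3c6_26100 is farthest out at -4.16 and -5.69.

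The median of a was -1.82 over the lower members and 1.49 over the higher members, beside -0.08 over the genes tested. The median of b was -1.47 over the lower and 1.58 over the higher members, beside -0.04 over the genes tested. With the groups that had no count set to their bound, the medians of a were -1.92 and 1.52 and those of b -1.47 and 1.58. TMM-adjusted library sizes moved the median of a over the genes tested by 0.12, and all 60 members kept both signs with them. The last gene inside the limit of 60, Pp3c11_4840, had a smaller difference of 1.20 (without the 3 libraries its a was 0.12 and its b -0.80) and the first outside, Pp3c17_16430, one of 1.18. The organ limit alone kept out 6 further genes, the nearest being Pp3c24_8090 at 3.02 between the wild type organs, against 2.93 for the member Pp3c18_15100. The floor of 3 CPM alone kept out 1 gene, Pp3c14_11899, whose highest group mean was 2.58 CPM, against 3.02 CPM for the member Pp3c7_19620. Without the 3 libraries the a and b of Pp3c18_15100 were 0.20 and -1.26, and those of Pp3c7_19620 were 1.92 and 0.07.

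Pp3c10_24880 is among the lower members. It is the locus taken, from memory of the literature, as the candidate for PpPINC, and neither the files nor the reference give it a name. It had 66, 0 and 0 counts in mutant antheridia, against 66, 39 and 165 counts in wild type antheridia. In mutant archegonia it had 3, 2 and 0 counts, against 94, 38 and 56 counts in wild type archegonia. The archegonia did not overlap, whereas the library labelled mutant antheridia 1 stood at 2.89 CPM, between the lowest and highest wild type antheridia, at 1.505 and 6.28 CPM. The values a and b were -1.23 and -1.77, and without the 3 libraries with few detected genes they were -0.24 and -1.72. Mutant antheridia 1 enters the antheridium mean of every member.

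The gene with the widest gap was Pp3c6_26100. It had 0, 102 and 1 counts in mutant antheridia, which is 0, 4.01 and 0.0251 CPM, against 56.3, 40.2 and 25.9 CPM in wild type antheridia. It had no count in the 3 mutant archegonium libraries, against 47.8, 52.2 and 52.3 CPM in wild type archegonia. Every mutant library thus lay under every wild type library of either organ. The mean was 30.4-fold lower in mutant than in wild type antheridia, and at least 1279-fold lower in mutant than in wild type archegonia with 3 counts over the group taken as its upper limit.

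The identifier next to it, Pp3c6_26080, which missed the rule and was singled out after its values were seen, had the same pattern at a far lower level. It had no count in any of the 6 mutant libraries, against 18, 6 and 68 counts in wild type antheridia and 1, 56 and 11 counts in wild type archegonia. With the same limit it was at least 35.7-fold lower in mutant than in wild type antheridia and at least 19.6-fold lower in mutant than in wild type archegonia. Of all 32926 genes it was the only 1 with no count in the 6 mutant libraries and counts in all 6 wild type libraries. That rests on its 1 count in wild type archegonia 1. With counts asked for in at least 5 wild type libraries, 6 genes, itself included, had no count in the mutant libraries. No gene had counts in all 6 mutant libraries and none in the wild type libraries. On the other side of Pp3c6_26100 the next identifier, Pp3c6_26190, averaged 13.9 CPM in mutant and 10.9 CPM in wild type antheridia, and 1.39 CPM in mutant and 2.24 CPM in wild type archegonia. The pattern thus did not extend to that neighbour. Without strand or the annotation, reads of overlapping genes cannot be told apart.

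Pp3c11_4360 showed the opposite of this pair, with counts in all 6 mutant libraries and almost none in wild type. It had 33, 133 and 90 counts in mutant antheridia, which is 1.44, 5.22 and 2.26 CPM, against no count in the 3 wild type antheridium libraries. Its counts in mutant archegonia were 154, 241 and 220, or 8.09, 9.41 and 7.11 CPM, against 0, 0 and 4 counts in wild type archegonia. It was at least 73.5-fold higher in mutant than in wild type antheridia, set against 3 counts over the group. In archegonia the ratio of pooled levels was 154.5, with an exact counting interval of 60.02 to 569 at the 95% level. Only 1 other gene, Pp3c1_2770, had counts in all 6 mutant libraries and at most 4 in the wild type libraries together, and its mutant levels did not exceed 0.262 CPM. The identifiers around Pp3c11_4360 were almost silent, Pp3c11_4330 having no count in any library and Pp3c11_4441 averaging 1.11 CPM in mutant and 0.525 CPM in wild type antheridia.

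Pp3c26_3990 was expressed in every library and stood higher in both mutant organs. It stood at 29.6, 28.9 and 20.6 CPM in mutant antheridia, against 3.61, 3.90 and 3.85 CPM in wild type antheridia. In mutant archegonia it stood at 32.8, 37.3 and 11.1 CPM, against 9.56, 7.83 and 6.29 CPM in wild type archegonia. The wild type antheridia had an SD of 0.154 CPM (n = 3). The mean was 6.97-fold higher in mutant than in wild type antheridia and 3.42-fold higher in mutant than in wild type archegonia. The lowest mutant archegonium library, mutant archegonia 3, is among the 3 with few detected genes, and without these 3 libraries a was 2.68 and b 2.02. Its neighbours Pp3c26_3970 and Pp3c26_4000 had values of a of 0.26 and 0.46.

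Pp3c21_5540 was the third higher member whose libraries did not overlap in either organ. It stood at 11.02, 3.22 and 10.9 CPM in mutant antheridia, against 0, 3.05 and 2.67 CPM in wild type antheridia. Its level in mutant archegonia was 23.4, 15.9 and 16.9 CPM, against 7.10, 3.57 and 6.05 CPM in wild type archegonia. The gap in antheridia was narrow, the lowest mutant value being 3.22 CPM and the highest wild type value 3.05 CPM. The mean was 4.41-fold higher in mutant than in wild type antheridia and 3.36-fold higher in mutant than in wild type archegonia.

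Among the lower members, Pp3c17_2700 and Pp3c14_23600 had every mutant library under every wild type library of either organ. Pp3c17_2700 stood at 5.69, 8.05 and 0 CPM in mutant antheridia, against 29.9, 18.7 and 40.5 CPM in wild type antheridia. In mutant archegonia it stood at 4.88, 1.84 and 3.91 CPM, against 18.0, 9.05 and 27.2 CPM in wild type archegonia. Its mean was 6.49-fold lower in mutant than in wild type antheridia and 5.10-fold lower in mutant than in wild type archegonia. The other gene, Pp3c14_23600, stood at 6.34, 0 and 2.21 CPM in mutant antheridia, against 27.04, 14.7 and 11.6 CPM in wild type antheridia. Its mean in mutant archegonia was 5.79 ± 0.504 CPM, against 23.2 ± 3.90 CPM in wild type archegonia (SD, n = 3). Its mean was 6.24-fold lower in mutant than in wild type antheridia and 4.01-fold lower in mutant than in wild type archegonia. The identifiers next to either gene did not reach the limit of the rule. Pp3c17_2650 had a and b of 0.29 and 0.35, and Pp3c17_2710 of -0.29 and -0.01. Pp3c14_23580 was lower in both mutant organs, at -0.27 and -0.46, while Pp3c14_23610 had 0.66 and 0.04.

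Pp3c10_13310 was almost silent in the mutant and uneven in wild type. It had 5, 0 and 0 counts in mutant antheridia, against 1047, 24 and 72 counts in wild type antheridia. In mutant archegonia it had 3, 3 and 0 counts, against 9, 368 and 43 counts in wild type archegonia. No mutant library exceeded 0.219 CPM, while wild type libraries spanned 0.435 to 47.8 CPM, so its large fold, 235-fold in antheridia, rests mainly on wild type antheridia 1.

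The last genes without overlap in either organ, Pp3c15_11880 and Pp3c24_11070, fell outside the rule for named genes and were chosen after their values were seen. Pp3c15_11880 stood at 1.57, 0 and 0 CPM in mutant antheridia, against 5.98, 4.17 and 3.05 CPM in wild type antheridia. Its level in mutant archegonia was 2.00, 1.41 and 0 CPM, against 2.71, 5.88 and 4.77 CPM in wild type archegonia. Its 3 zeros in the mutant are the 3 libraries with few detected genes. Pp3c24_11070 averaged 10.2 ± 5.95 CPM in mutant and 25.1 ± 2.92 CPM in wild type antheridia, and 31.4 ± 17.5 CPM in mutant and 75.3 ± 27.6 CPM in wild type archegonia (SD, n = 3). Without the 3 libraries with few detected genes its a and b were -0.53 and -0.85, under the limit of the rule.

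**Figure D2:**
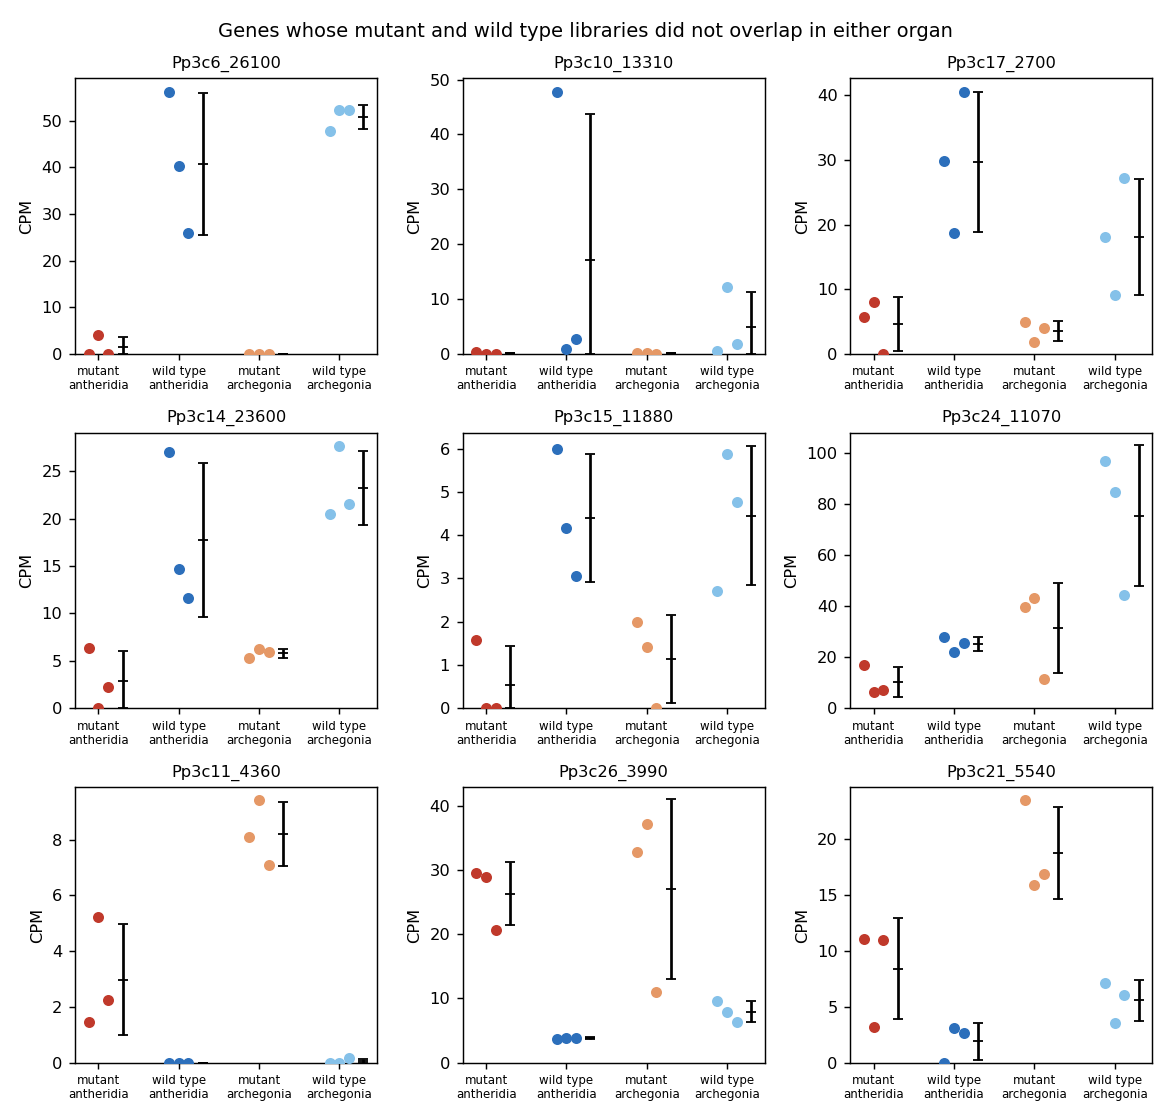
Level in CPM of the 9 members whose mutant and wild type libraries did not overlap in either organ, with the 3 libraries of each group as points and the mean ± SD beside them, the lower bar ending at 0 where it would pass it. Each vertical axis starts at 0 and has its own scale. Pp3c6_26100 has no count in mutant archegonia and Pp3c11_4360 none in wild type antheridia, while in archegonia the highest mutant and lowest wild type values of Pp3c24_11070 are 43.2 and 44.2 CPM.

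Members whose libraries were apart in both organs numbered 9, beside 0.527% of the genes tested. No member was apart in opposite directions in the 2 organs, beside 0.233%. Both organs were without overlap and lower in the mutant in 6 of the 60 members and in 0.465% of the genes tested, and higher in 3 members and in 0.0614%. In antheridia alone or with archegonia, 19 members were lower without overlap, beside 7.63% of the genes tested, and 5 were higher, beside 2.92%. In archegonia 13 members were lower without overlap, beside 5.85%, and 12 were higher, beside 2.54%. The rule used the same values, so nothing is read from these shares. Of the members, 31 members were without overlap in a single organ and 20 in neither. The shares of the genes tested apart in a single organ or in neither were not counted. These counts, and the like counts of further members below, are therefore a description only. Over all 12 libraries pooled, 5 lower members did not overlap, beside 0.14%, and 2 higher members, Pp3c11_4360 and Pp3c26_3990, beside 0.0176%.

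The other lower members named had a wide spread within groups. Pp3c15_15300 stood at 0.700, 0.0393 and 0 CPM in mutant antheridia, against 30.9, 2.28 and 17.9 CPM in wild type antheridia. In mutant archegonia it stood at 3.36, 0.625 and 2.36 CPM, against 21.1, 35.4 and 1.88 CPM in wild type archegonia. The antheridia were thus apart, whereas wild type archegonia 3 lay inside the mutant range. Pp3c19_18500 had 6, 0 and 0 counts in mutant antheridia, against 436, 124 and 207 counts in wild type antheridia, and in archegonia the groups overlapped, at 4.71 ± 2.17 CPM in the mutant and 15.6 ± 13.1 CPM in wild type (SD, n = 3). Pp3c20_10970 had 38, 0 and 0 counts in mutant antheridia, against 1369, 137 and 806 counts in wild type antheridia. Its counts in mutant archegonia were 43, 24 and 3, against 6, 396 and 98 counts in wild type archegonia, so that wild type archegonia 1 lay inside the mutant range. Pp3c4_21460 averaged 0.437 ± 0.416 CPM in mutant and 8.80 ± 10.98 CPM in wild type antheridia (SD, n = 3). Here the highest mutant value was 0.828 CPM and the lowest wild type value 0.838 CPM, and in archegonia the groups overlapped. Without the 3 libraries with few detected genes its a and b were -2.73 and -0.98.

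Pp3c13_11710 and Pp3c8_1440 overlapped in both organs. Pp3c13_11710 stood at 8.97, 0 and 0.678 CPM in mutant antheridia, against 124.1, 14.2 and 1.03 CPM in wild type antheridia, a single high library making most of the wild type mean. Pp3c8_1440 stood at 18.0, 27.5 and 0.0251 CPM in mutant antheridia, against 76.1, 33.1 and 26.1 CPM in wild type antheridia. Pp3c27_6070 and Pp3c25_14480 were apart in antheridia and overlapped in archegonia. Pp3c27_6070 stood at 40.9, 13.8 and 0 CPM in mutant antheridia, against 88.6, 85.6 and 71.6 CPM in wild type antheridia. Its wild type archegonia 3, at 17.6 CPM, lay under mutant archegonia 1 and 2, at 47.5 and 43.9 CPM. Without the 3 libraries its a was -0.98, just under the limit of the rule, and its b -1.08. Pp3c25_14480 averaged 2.42 ± 1.82 CPM in mutant and 11.03 ± 3.54 CPM in wild type antheridia (SD, n = 3). It was at 17.6, 9.33 and 1.03 CPM in mutant archegonia, against 17.5, 30.3 and 36.3 CPM in wild type archegonia, and only mutant archegonia 1 and wild type archegonia 1 crossed. The 18 further lower members, Pp3c14_5200 among them, had a between -3.07 and -1.27 and b between -1.77 and -1.21, and 7 of them were apart in antheridia only, 6 in archegonia only and 5 in neither organ.

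In several higher members a single library carried most of a group's mean. Pp3c3_6500 had 649, 0 and 0 counts in mutant antheridia, against 16, 7 and 31 counts in wild type antheridia, and 240, 195 and 0 counts in mutant archegonia, against 8, 14 and 74 counts in wild type archegonia. The zeros are again mutant antheridia 2 and 3 and mutant archegonia 3, so that the highest and the lowest values of this gene both came from mutant libraries. Pp3c7_2100 stood at 1.14, 6.48 and 101.7 CPM in mutant antheridia, against 1.42, 24.9 and 3.998 CPM in wild type antheridia, and without the 3 libraries its a was -2.38 and its b 2.23. In archegonia it was apart, at 34.2, 35.3 and 13.9 CPM in the mutant, against 5.41, 9.65 and 4.81 CPM in wild type. Pp3c11_14310 stood at 3.24, 62.4 and 1.58 CPM in mutant antheridia, against 12.7, 3.13 and 2.21 CPM in wild type antheridia. A single library, mutant antheridia 2, put it above wild type, and without the 3 libraries with few detected genes its a was -0.72 and its b 0.00096.

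Pp3c18_3870, Pp3c5_1480 and Pp3c11_19480 overlapped in both organs. Pp3c18_3870 averaged 11.8 ± 8.96 CPM in mutant and 2.18 ± 1.29 CPM in wild type antheridia, and 30.6 ± 32.6 CPM in mutant and 7.35 ± 5.68 CPM in wild type archegonia (SD, n = 3). Its antheridium difference rested on mutant antheridia 2 and 3, at 20.4 and 12.6 CPM against 2.54 CPM in mutant antheridia 1, and without the 3 libraries its a was 0.15 and its b 2.45. Pp3c5_1480 had its highest level, 81.3 CPM, in mutant archegonia 3, and without the 3 libraries its a was -1.24 and its b 0.40. Pp3c11_19480 had 127, 0 and 94 counts in mutant antheridia, against 0, 10 and 0 counts in wild type antheridia, and 24, 211 and 0 counts in mutant archegonia, against 2, 6 and 20 counts in wild type archegonia. It was close to silent in wild type, with the mutant zeros in libraries with few detected genes. Pp3c10_20700 and Pp3c12_20420 were apart in archegonia only. Pp3c10_20700 stood at 6.25, 5.62 and 16.9 CPM in mutant archegonia, against 1.21, 1.02 and 3.16 CPM in wild type archegonia. Pp3c12_20420 stood at 2.47, 9.10 and 3.46 CPM in mutant archegonia, against 1.64, 0.826 and 1.44 CPM in wild type archegonia. Its a was 0.77 and its b 1.56 without the 3 libraries. Pp3c4_31800 was apart in antheridia only, at 5.51, 5.58 and 14.6 CPM in the mutant, against 0, 5.29 and 1.68 CPM in wild type, and without the 3 libraries its a was 0.97 and its b 2.01.

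Pp3c17_17450 was the member with no count in all 6 libraries of a genotype, which was wild type. It had 14, 84 and 0 counts in mutant antheridia and 0, 0 and 538 counts in mutant archegonia, so 3 of the 6 mutant libraries were silent as well. Against 3 counts over the group it was at least 32.2-fold higher in mutant than in wild type antheridia and at least 146.7-fold higher in mutant than in wild type archegonia, where all counts came from mutant archegonia 3. Its a was 0.69 and its b 0 without the 3 libraries. The 13 further higher members had a between 1.20 and 2.41 and b between 1.20 and 2.03, with 1 apart in antheridia only, 6 in archegonia only and 6 in neither organ. In 11 of the 26 higher members a single library held 80% or more of the summed level of its mutant group in at least 1 organ. Lower members had such libraries too, but the rule chose their mutant groups for low means, so the lists are not alike in this. Mutant antheridia 1, 2 and 3 held that share in 12, 4 and 1 of the 34 lower members, against 2, 3 and 3 higher members. For mutant archegonia 1, 2 and 3 it was 1, 1 and 0 lower members, against 0, 1 and 4 higher members. In the wild type groups, where the lower members were high, wild type antheridia 1, 2 and 3 held that share in 6, 0 and 1 of them. Wild type archegonia 1, 2 and 3 held it in 1, 1 and 0 lower members. The share over all genes tested was not counted.

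**Figure D3:**
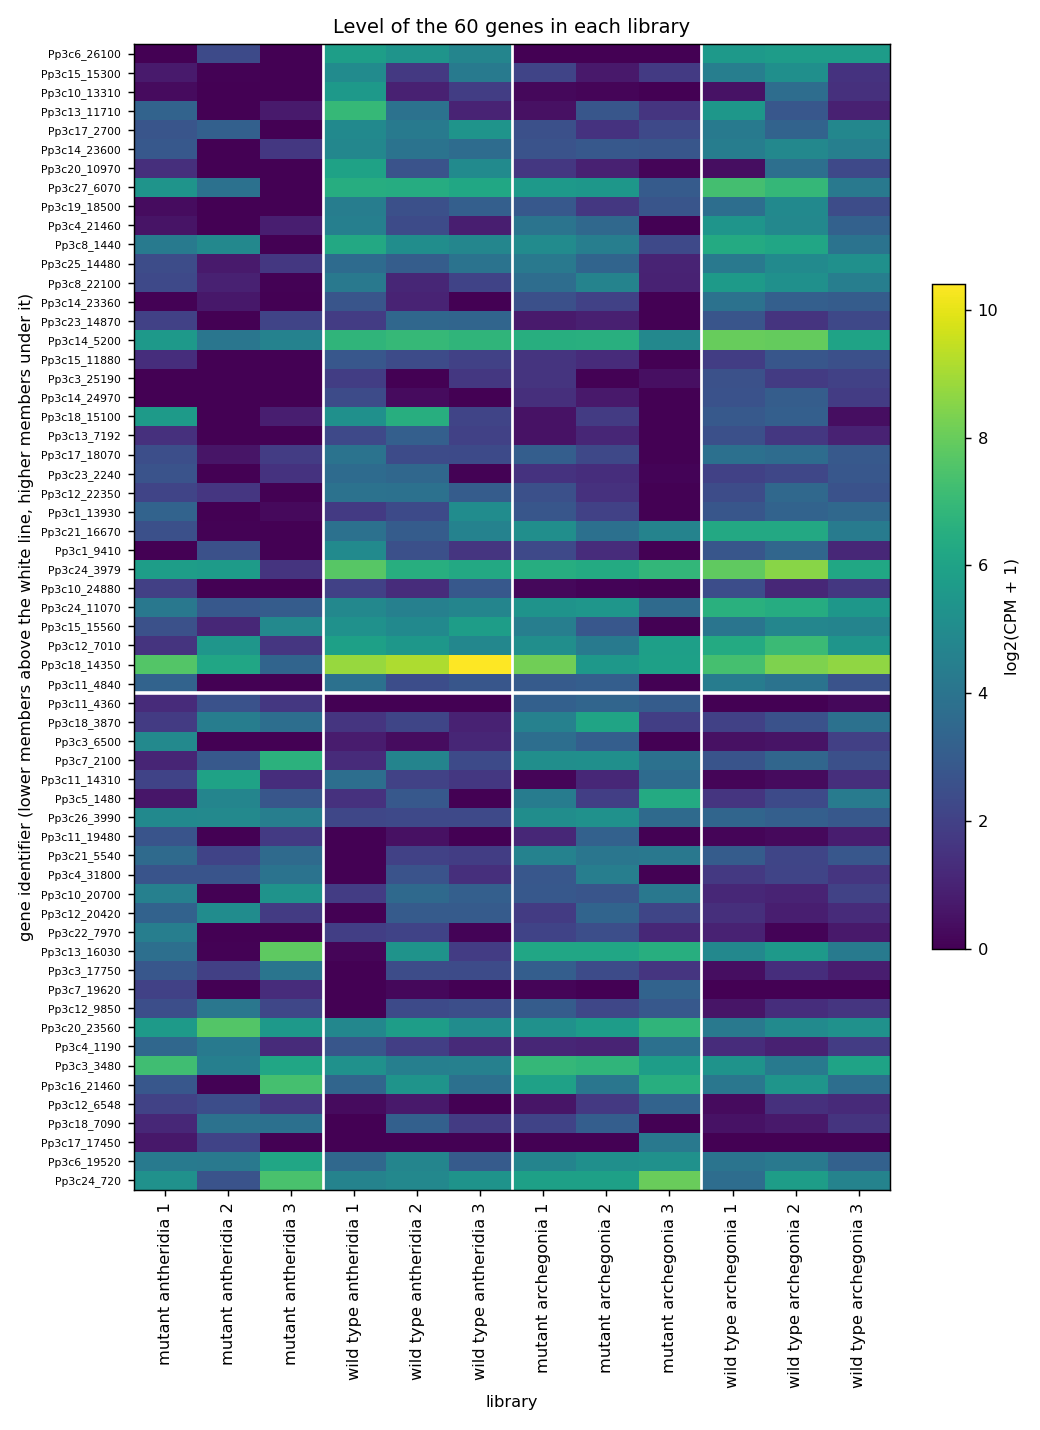
Level of each of the 60 members, as log2 of CPM plus 1, in the 12 libraries, which run along the x axis in groups of 3 split by white lines. The 34 lower members are above the horizontal white line and the 26 higher members under it, each in order of the smaller one of a and b. Dark cells of the lower members gather in mutant antheridia 2 and 3 and mutant archegonia 3, and those of the higher members in wild type antheridia 1.

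Zero counts were not spread evenly over the libraries. Of the 34 lower members, 16 had no count in mutant antheridia 2, 16 in mutant antheridia 3 and 16 in mutant archegonia 3, or 47.1% in each. Over the genes tested the shares in these libraries were 18.3%, 13.4% and 15.6%. In the other 3 mutant libraries 4, 1 and 1 lower members were at 0, and in the 6 wild type libraries between 0 and 2. Of the 34, 26 were at 0 in at least 1 of the 3 libraries and 6 in all 3. Among the 26 higher members the most zeros were in wild type antheridia 1, with 10 members or 38.5% at 0, against 8.5995% of the genes tested. The rule chose the lower members for low mutant means and the higher members for low wild type means. Zeros in those libraries are thus in part a result of the choice, and the genes tested were not matched for level. Detection moved with the genotype difference of many members, and its part in that difference was not tested. Without the 3 libraries, which leaves 1 mutant antheridium library and 2 mutant archegonium libraries, 50 members kept both signs, and 28 still met the rule, 20 of the 34 lower and 8 of the 26 higher ones.

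**Figure D4:**
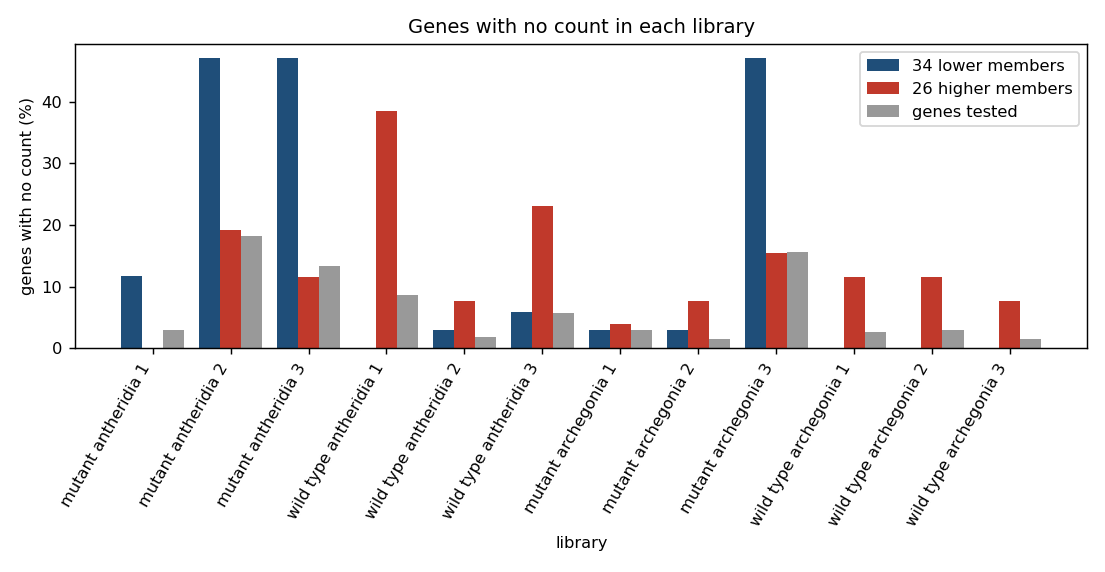
Share of genes with no count, in percent, in each of the 12 libraries, for the 34 lower members (blue), the 26 higher members (red) and the 22792 genes tested (grey). The blue bars reach 47.1% in mutant antheridia 2 and 3 and mutant archegonia 3, and the tallest red bar is 38.5% in wild type antheridia 1.

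A library that the choice of genes did not use gives values independent of it. The rule was therefore applied to 11 libraries, 12 times, and the library left out was placed for each of the 60 genes then chosen, nearer to the mutant or to the wild type mean of its organ on the scale of log2 of CPM plus 1. Mutant antheridia 1, 2 and 3 lay nearer to the mutant in 21, 24 and 35 of 60 genes, and mutant archegonia 1, 2 and 3 in 14, 18 and 19 of 60. Wild type antheridia 1, 2 and 3 lay nearer to wild type in 41, 26 and 35 of 60 genes, and wild type archegonia 1, 2 and 3 in 42, 35 and 14 of 60. For mutant antheridia 3 the share was 58.3%, and it was 26 of 36 for the lower genes but 9 of 24 for the higher ones, with 15 of these 36 lower genes at 0 in it. The same was counted over all genes tested that differed between the genotypes among the remaining libraries of the organ. For these the means of log2 of CPM plus 1 differed by 1 or more in that organ. The rule instead used the log2 of mean CPM plus 1 in both organs, so the sets were chosen by unlike measures. For mutant antheridia 1, 2 and 3 the chosen genes gave 35%, 40% and 58.3%, beside 24.8%, 42.7% and 38.3% of all such genes. For mutant archegonia 1, 2 and 3 they gave 23.3%, 30% and 31.7%, beside 19.5%, 18.98% and 24.6%. A left-out mutant library thus lay nearer to wild type for most genes in 5 of 6 cases among the chosen genes and in 6 of 6 among all such genes, so this is not particular to the chosen genes. Wild type antheridia 1, 2 and 3 gave 68.3%, 43.3% and 58.3%, beside 63.8%, 62.5% and 59.0%, and wild type archegonia 1, 2 and 3 gave 70.0%, 58.3% and 23.3%, beside 64.6%, 49.5% and 44.5%.

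**Figure D5:**
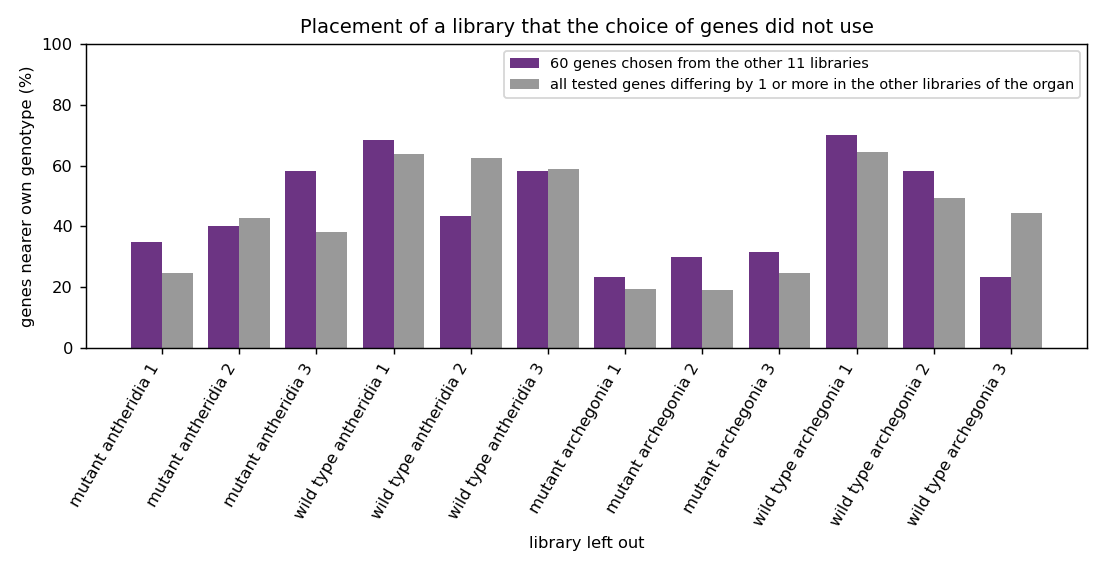
Share of genes, in percent, for which a left-out library (x axis) lay nearer to its own genotype, for the 60 genes chosen from the other 11 libraries (purple) and for all tested genes differing by 1 or more on the log2 scale in the other libraries of the organ (grey). The purple bars span 23.3% for mutant archegonia 1 and wild type archegonia 3 to 70.0% for wild type archegonia 1.

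Of the 60 members, 11 met the rule whichever single library was left out, 8 lower and 3 higher. The 8 were Pp3c6_26100, Pp3c15_15300, Pp3c17_2700, Pp3c14_23600, Pp3c27_6070, Pp3c25_14480, Pp3c14_5200 and Pp3c15_11880, and the 3 were Pp3c11_4360, Pp3c26_3990 and Pp3c21_5540. For Pp3c6_26100 and Pp3c11_4360 each of the 12 left-out libraries lay nearer to its own genotype. For Pp3c17_2700, Pp3c14_23600 and Pp3c26_3990 this held for 11 of 12 libraries. The 60 members were chosen with all 12 libraries, so for them a left-out library is not independent of the choice. These counts are therefore a description and were not set beside all genes tested. Pp3c14_5200, named after its values were seen, had an even level in wild type antheridia, at 29.3 ± 17.0 CPM in mutant and 114.9 ± 7.18 CPM in wild type antheridia, but overlapped in archegonia, at 70.7 ± 36.9 CPM in the mutant and 188.3 ± 106.7 CPM in wild type (SD, n = 3).

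The difference of mutant and wild type averaged over both organs was also fitted for every gene. The quasi-likelihood test of edgeR called 0 of 22792 genes, 0% of those tested and 0 of the 60 members, and 1130 genes, 4.96% of those tested, had an unadjusted p under 0.05. The lowest adjusted p in edgeR was 0.0688. The DESeq2 Wald test called 69 genes, 0.303%, with 7 members among them. These were Pp3c6_26100, Pp3c15_15300, Pp3c10_13310, Pp3c11_4360, Pp3c26_3990, Pp3c19_18500 and Pp3c17_17450. All archegonium counts of Pp3c17_17450 came from the single library mutant archegonia 3. The limma-voom fit called 2 genes, 0.00878%, and they were Pp3c6_26100 and Pp3c11_4360. In edgeR the log2 fold changes of Pp3c6_26100, Pp3c11_4360 and Pp3c26_3990 were -9.00 ± 1.22, 8.32 ± 1.17 and 2.37 ± 0.36. The value after ± is an approximate SE, the size of the log2 fold change over the square root of F. For the first 2 genes these values depend on the prior count because a group was at 0. As the rule used this contrast, the counts of calls are a description. When mutant antheridia 1 was left out, edgeR gave 53 calls (51 lower) among the 23304 genes then tested. Of the members, 5 were among these calls, Pp3c6_26100, Pp3c11_4360, Pp3c26_3990, Pp3c21_16670 and Pp3c10_24880, and this count too is a description. That fit kept only mutant antheridia 2 and 3 in their group, both among the 3 libraries with few detected genes. The cause of these calls was not tested.

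In the authors' deposited table for antheridia, 15 of 20989 genes with an adjusted p were under 0.05, which is 0.0715%, and Pp3c26_3990 was the member among them. The authors' deposited table gave it a log2 fold change of 2.60 and an adjusted p of 3.58e-08. In the authors' deposited table for archegonia 12 of 18049 genes were under 0.05, or 0.0665%, and the members were Pp3c6_26100, Pp3c11_4360 and Pp3c14_23600. For Pp3c14_23600 the authors' deposited table gave a log2 fold change of -1.64 and an adjusted p of 0.000189. No member was under 0.05 in both of these tables of the authors.

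The lower members had a median level of 3.09 CPM in the mutant and 18.8 CPM in wild type. The higher members had a median level of 11.6 CPM in the mutant and 3.15 CPM in wild type. Over the genes tested the medians were 19.7 CPM in the mutant and 20.3 CPM in wild type. In wild type, 11 members were higher in antheridia than in archegonia by at least 1 on the log2 scale and 11 were higher in archegonia. The genotype difference was larger in antheridia than in archegonia in 40 of the 60 members, and in 14402 of the 22792 genes tested. The numbers in the identifiers place the members on 25 chromosomes, with at most 5 on a single one, and no member had another within 5 identifiers, beside 1.87% of the genes tested that had a member that near. Among all 155 qualifying genes, 7 or 4.52% had another within 5 identifiers, beside 4.75% of the genes tested.

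Lists of 30 organ-enriched genes, taken from all 12 libraries without the members and with at least 20 CPM in each library of the organ, served to describe the organs. The archegonium list summed to 26559 to 30158 CPM in mutant and 42092 to 74992 CPM in wild type archegonia, and to 1202 to 1832 CPM in mutant and 1478 to 6287 CPM in wild type antheridia. The archegonia of the genotypes thus did not overlap in this sum, and its part in the members' levels was not tested. The antheridium list summed to 5926 to 41696 CPM in mutant and 8752 to 20531 CPM in wild type antheridia, against 8.27 to 25.8 CPM in mutant and 18.0 to 32.0 CPM in wild type archegonia. In mutant archegonia 3, 24 of the 30 antheridium genes were at 0, against 1 to 4 of 30 in the other archegonium libraries.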

How the data were processed

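Whole-number read counts of 12 libraries were deposited by the authors. Their 3 DESeq2 result tables, deposited without a header, give a mean normalized signal and a log2 fold change per gene, with a p-value and an adjusted p-value for some genes only; signs were compared with the counts. Per the submitters' processing notes, Trim Galore 0.6.6, cutadapt 2.10, HISAT2 2.1.0 and DESeq2 2.11.40.6 were used. Per the labels' protocols, RNA was made into cDNA by Smart-seq2, a method without strand information or molecular identifiers. Which build, annotation and counting options were used is not given in these sources.

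From the counts, CPM on the column sum was computed. The members, gene lists and rules were chosen with earlier results of these data known. Groups and replicate numbers came from the titles. The test was the edgeR 4.0.16 quasi-likelihood F test in R 4.3.3 (TMM, filterByExpr, robust, non-legacy fit) over all 12 libraries and 4 group means, with Benjamini-Hochberg adjustment and a threshold of 0.05, and was tested on simulated data. The alternatives were DESeq2 1.42.0, limma 3.58.1, other scalings, filters and pseudocounts, and leaving out libraries. Named were the 12 lower and 12 higher members with the largest smaller difference, members with no count in a whole genotype, the last gene inside the limit, and Pp3c10_24880. A floor of 3 counts was 0.0753 to 0.158 CPM in a single library, and floors and intervals cover counting error only. The only spread behind a p-value is that between these libraries, and it may be technical. The RefSeq table carried none of the identifiers.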

Additional observations from a re-analysis of the deposited data

How the results depend on the processing

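The 86 lower and 69 higher qualifying genes became 43 and 42 with a pseudocount of 2 CPM. With group medians the lower genes numbered 161. Without mutant antheridia 2 and 3 and mutant archegonia 3, the 3 libraries with few detected genes, the higher genes numbered 190. Leaving out single libraries gave 70 to 203 lower and 57 to 138 higher genes, and the counts moved by over 1.5-fold without mutant archegonia 1 (203 lower), mutant archegonia 2 (155 lower), mutant antheridia 1 (142 lower), wild type archegonia 3 (143 lower, 138 higher) and mutant archegonia 3 (119 higher). The other scaling, floors, pseudocount of 0.5 CPM and organ limit tried kept both counts within 1.5-fold. The 0 edgeR calls over both organs became 69 in the DESeq2 Wald test, 2 in limma-voom and 2 without the 3 libraries, with 7, 2 and 2 members, and 0 to 53 with single libraries left out, with 0 to 5 members. In the fit without the 3 libraries the lone mutant antheridium library is assumed to vary like the other groups. The 9 members without overlap in either organ were 9 to 17 with single libraries left out, 17 without wild type archegonia 3, 14 without mutant archegonia 1, 14 without wild type archegonia 1, and 18 without the 3 libraries, where fewer libraries can overlap. The authors' deposited table over both organs gives an adjusted p for 1643 genes, 0 of them under 0.05, and 2 genes were under 0.05 when its p-values were adjusted over every gene, an alternative chosen after seeing the data.

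Of 918 recomputed differences of named members, 897 kept their direction and moved by less than the replicate spread, 13 kept it and moved by more, and 8 reversed. Leaving out a library of the other organ cannot move a difference. Such settings are counted among the 897, so that count is no measure of stability. In antheridia Pp3c3_6500 was -0.79 with group medians and -0.79 to 3.14 with single libraries left out, Pp3c7_2100 was -1.21 to 3.34 and Pp3c11_14310 was -1.04 to 2.67. Without the 3 libraries Pp3c7_2100 was -2.38, Pp3c11_14310 -0.72, Pp3c5_1480 -1.24 and Pp3c11_4840 0.12. The cause was not tested. With the replicate number as a replicate block edgeR again called 0 genes. Of 18 pairs of libraries with the same number, correlations of deviations from the group means were -0.42 to 0.18, with 4 over 0.1. Pairs with different numbers were not compared, so these values cannot show whether libraries with the same number share anything more than it. Depth limits levels near the floor of 3 counts.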

Other observations

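In the authors' deposited table over both organs, the smallest p-values belonged to members of the higher list. Pp3c11_4360 had the smallest p of that table, 2.17e-16, at a log2 fold change of 3.72, and Pp3c26_3990 the next, 4.55e-11, at 2.04. The authors' deposited table leaves the adjusted p of both genes empty, as it does for every gene with a mean under 2891, and of the 60 members only Pp3c18_14350 has an adjusted p there, 0.105. Adjusted over all 27108 genes with a p-value in the authors' deposited table, both genes are under 0.05, at 5.88e-12 and 6.17e-07, and no other gene is. For Pp3c18_14350, a and b were -1.98 and -0.87 without the 3 libraries with few detected genes. Pp3c6_26100, with the widest gap in the counts, has a p of 0.0162 and a log2 fold change of -0.99 in the authors' deposited table over both organs, at place 396 of the p-values. In the authors' deposited table for archegonia it ranks 1 by p, at a log2 fold change of -6.56 and an adjusted p of 1.53e-66. For antheridia the authors' deposited table gives it -1.20 and an adjusted p of 0.946. The authors' fold changes are not the same measure as a and b or the edgeR values.

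Of the 23 identifiers from Pp3c14_23270 to Pp3c14_23600, 4 met the rule, all lower in the mutant. The stretch was chosen after its values were seen and begins and ends on qualifying genes, so the count is no sign of clustering. Of its 21 tested genes 10 were lower on average in both mutant organs, beside 29.2% of all tested genes, and of all 155 qualifying genes 4.52% had another within 5 identifiers, beside 4.75% of the genes tested. Pp3c14_23270 had 18, 0 and 0 counts in mutant antheridia, against 280, 171 and 502 counts in wild type antheridia, and 108, 30 and 52 counts in mutant archegonia, against 134, 241 and 149 counts in wild type archegonia. Its mutant libraries were all lower than its wild type libraries in CPM. Pp3c14_23280, the identifier next to it, had no count in mutant antheridia, against 55, 65 and 74 counts in wild type antheridia, and 56, 11 and 0 counts in mutant archegonia, against 77, 143 and 46 counts in wild type archegonia, so that its archegonia overlapped.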
